A study of Mus musculus with 24 samples.

Results

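Alk, Prkce, Epas1 and Msh6 lie on the distal part of mouse Chr 17, in a block of genes that in man sits on the short arm of Chr 2 (2p). These 4 genes, out of 20621 protein-coding autosomal genes with a copy number value, were chosen by name and position, with their gains in these tumours already known. Their levels are therefore given as a description and were not tested between groups. Copy number was measured by shallow whole genome sequencing (sWGS), in which the genome is read thinly and the number of reads per window is compared with reference samples. A value is the log2 ratio of a segment (a stretch called at a single level) to wildtype adrenal glands, so that 0 stands for 2 copies.

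The labels list 24 mouse samples, each of which was a piece of bulk tissue. The 3 AG samples were adrenal glands labelled CRE -; they served as the reference and have no segments of their own. The 5 AGM samples were adrenal glands of animals labelled MYCN fl/wt, CRE +. The 8 TI samples were tumours of CRE + animals with the IGF2BP1 transgene, labelled IGF2BP1 +/- in replicate 1 and IGF2BP1 +/+ in the other 7. The 8 TIM samples were tumours labelled IMP1/MYCN, CRE +, where IMP1 is another name of IGF2BP1, and carry the replicate numbers 1, 4, 5, 7, 8, 9, 11 and 12. Both transgenes were placed at the Rosa26 locus behind a stop cassette and were switched on by an iCRE driven by Dbh, a gene of noradrenaline-making cells, so that all TI, TIM and AGM animals carried an active CRE. The ages of the animals are not given in the labels. By the paper, MYCN mice were culled at a fixed age. Median survival was shorter in IGF2BP1/MYCN mice than in homozygous IGF2BP1 mice. Age therefore differed between the groups and cannot be told apart from genotype. Names of 7 TI libraries begin with SH, whereas TI replicate 8 and every TIM and AGM library begin with AGH, so that name series and genotype cannot be told apart for most of the comparison. The 3 AG reference libraries are also named SH, so that TIM, AGM and TI replicate 8 were set against a reference of the other series. In a bulk tumour, fewer cells with a gain and a smaller gain in every cell cannot be told apart.

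ALK is a receptor tyrosine kinase of the developing sympathetic nervous system that is activated by the ligand ALKAL2 and is mutated or amplified in part of human neuroblastoma. Epas1 encodes HIF-2α, an oxygen-regulated transcription factor. Prkce encodes protein kinase C epsilon, a kinase of lipid second messenger signalling. Msh6 encodes a protein of mismatch repair, which finds mismatched bases after replication. Gain of 2p, which in man carries ALK, MYCN and ALKAL2 on a single arm, is a common aberration of neuroblastoma. In the mouse the same genes are split, with Alk on Chr 17 and both Mycn and Alkal2 on Chr 12.

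By GRCm39 (mm39) coordinates, Alk (ENSMUSG00000055471, minus strand) spans chr17:72174200-72911622. Prkce (ENSMUSG00000045038, plus strand) spans chr17:86474992-86965429 and starts 13.6 Mb beyond the end of Alk. Epas1 (ENSMUSG00000024140, plus strand) follows at chr17:87061087-87140838, 95.7 kb beyond Prkce. Msh6 (ENSMUSG00000005370, plus strand) lies at chr17:88282418-88298320, a further 1.14 Mb away. The 4 genes cover 16.1 Mb from end to end. The segments that describe them covered whole genes, with exons, introns and UTRs alike. The list of 86 genes of the 2p block on Chr 17 reached from chr17:72075468 to chr17:91400505, which is 19.3 Mb or 20.3% of the chromosome.

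Copy number of the 4 genes was raised in some TI tumours and stayed near 2 in the TIM tumours and AGM glands. A gain was called at a log2 ratio of 0.3 or more and a loss at -0.4 or less. Alk was gained in 2 of 8 TI tumours (25%, exact Clopper-Pearson 95% interval 3.19% to 65.1%, which covers the small number of tumours). Prkce and Epas1 were gained in 3 of 8 (37.5%, 8.52% to 75.5%), and Msh6 in 2 of 8. No member was gained in the 8 TIM tumours, which leaves room for a share of up to 36.9%, or in the 5 AGM glands, up to 52.2%. No member was lost in any sample, and 10 of the 84 pairs of a member and a sample were gained. At a threshold of 0.2, Alk and Msh6 were gained in 3 TI tumours and Prkce and Epas1 in 4. Each member was gained in 5 TI tumours at 0.1 and in 1 at 0.5. Without TI replicate 1, which carries the IGF2BP1 +/- label, or without TI replicate 7, Alk and Msh6 were gained in 1 of 7 TI tumours. With copies rounded to whole numbers, TI replicate 3 was no longer called, and Prkce and Epas1 were gained in 2 TI tumours, as were Alk and Msh6.

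These counts have to be read against the rest of the genome. Over all 20621 genes, 9.19% of the pairs of a gene and a TI tumour were gained, 3.64% of the pairs in TIM and 0.0262% of the pairs in AGM. Of all genes, 19.5% were gained in at least 2 TI tumours, as each of the 4 members was. Since the members were picked with this contrast known and share segments, nothing is read from the difference.

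**Figure D1:**
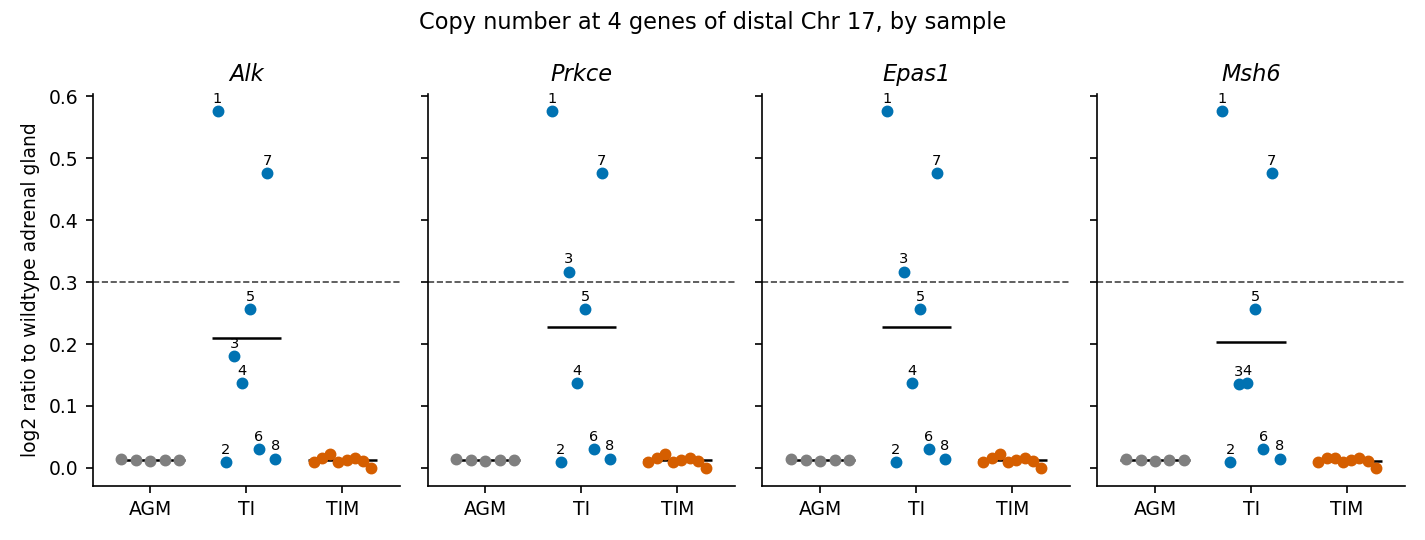
Log2 ratio to wildtype adrenal gland (y axis) at Alk, Prkce, Epas1 and Msh6 in each AGM gland (n = 5), TI tumour (n = 8, numbered by replicate) and TIM tumour (n = 8); bars are group means and the dashed line is the gain threshold of 0.3. TI replicates 1 and 7 lie above the line at all 4 genes and TI replicate 3 at Prkce and Epas1, while the AGM and TIM samples sit between 0.0000252 and 0.0217.

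At Alk, the log2 ratio was 0.576 in TI replicate 1, 0.0088 in replicate 2, 0.180 in replicate 3, 0.136 in replicate 4, 0.256 in replicate 5, 0.030 in replicate 6, 0.476 in replicate 7 and 0.0147 in replicate 8. The tumours were spread over this whole range, with a mean of 0.210 ± 0.215 (SD, n = 8). As copies per cell averaged over the tissue, replicate 1 held 2.98 copies of Alk, replicate 7 held 2.78, replicate 5 held 2.39, replicate 3 held 2.27 and replicate 4 held 2.198. In the AGM glands the lowest ratio was 0.0112 and the highest 0.0144, with a mean of 0.0126 ± 0.00122 (SD, n = 5). In the TIM tumours the lowest, median and highest values were 0.0000252, 0.0116 and 0.0217, with a mean of 0.0119 ± 0.00640 (SD, n = 8). TI replicates 1, 3, 4, 5, 6 and 7 were above every AGM and TIM sample, whereas replicates 2 and 8 lay within their range. Replicate 6, however, had the highest median over all autosomes (0.0253), so that its Alk stood less far above its own library than that of TIM replicate 5, with 0.0217 at Alk and a library median of 0.0117.

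Epas1 and Prkce shared a segment in every TI tumour and had the same values there. They differed from Alk in TI replicate 3, where the ratio was 0.317, or 2.49 copies, and this raised the mean over the TI tumours to 0.227 ± 0.218 (SD, n = 8). Msh6 in that tumour was at 0.135, so that its mean was 0.204 ± 0.217 (SD, n = 8). The lowest value called a gain at any member was the 0.317 of TI replicate 3 and the highest value not called was the 0.256 of TI replicate 5. All 4 members lay in a single segment in 19 of 21 samples. The exceptions were TI replicate 3 and TIM replicate 5, in which Msh6 was at 0.0159 and the other members at 0.0217. The members are therefore not independent readings of a tumour.

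The gains at the members were parts of gains of nearly the whole chromosome in TI replicates 1 and 7 and of a smaller gain in TI replicate 3. In TI replicate 7, a single segment ran from chr17:3040001 to chr17:95200000 at 0.476, which is 92.16 Mb or 96.7% of the chromosome. The rest consisted of the unsequenced start of the assembly, where the first 3.05 Mb hold no bases, and its last 100 kb. Neither the region before the 2p block nor the one behind it differed in level from the block itself.

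In TI replicate 1, 91.66 Mb (96.2%) were gained, and the chromosome was called in 16 segments. Of these, chr17:1-3040000, chr17:6480001-6620000 and chr17:95200001-95294699 held no sequenced bases. All 4 members lay in the last long segment, chr17:59140001-95200000, which spanned 36.06 Mb at 0.576. This segment began between Cntnap5c and Pdzph1, 13.0 Mb before Alk. The neighbouring segment, chr17:41400001-59140000, was lower at 0.5003, or 2.83 copies. Between chr17:27460001 and chr17:41400000, the tumour carried short steps away from this level. A 180 kb segment at chr17:27460001-27640000, which holds no protein-coding gene and lies between Lemd2 and Grm4, reached 1.203. Within the major histocompatibility complex, chr17:35600001-35780000, with H2-Q4, H2-Q5, H2-Q6 and H2-Q7, was at 0.97, and chr17:36360001-36440000, with 5 genes that include H2-T9, H2-T10, H2-T13 and H2-T15, was at 1.35. These class I genes are a family of near-identical copies, for which reads are hard to assign. Whether this had a part in these levels was not tested. No other sample had a gained or lost segment under 1 Mb there. A 260 kb segment with Esp38 at chr17:40240001-40500000 fell to -0.98. None of these steps touched the 2p block, in which this tumour showed a single level.

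A gain of nearly the whole chromosome was not called in TI replicate 3. Its Chr 17 was called in 15 segments, of which 2 passed the gain threshold and together made up 7.10 Mb (7.45%). The larger, chr17:82100001-88180000, was 6.08 Mb long at 0.317 and held 35 protein-coding genes, Prkce and Epas1 among them. It started between Slc8a1, a sodium and calcium exchanger gene, and Pkdcc, 9.19 Mb beyond the end of Alk. It ended between Kcnk12 and Msh6, 102 kb before the start of Msh6. The smaller, chr17:15380001-16400000, was 1.02 Mb long at 0.389 and lay outside the 2p block. Alk fell into the preceding segment, chr17:55460001-82100000, at 0.180, and Msh6 into the last, chr17:88180001-95294699, at 0.135. All of Chr 17 from 6.84 Mb on was thus above the AGM range in this tumour, and the gain of Epas1 without Alk rested on a step of 0.137 on the log2 scale.

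The levels in TI replicate 3 were set beside base composition. Over its 12 segments of at least 1 Mb, log2 ratios went from 0.067 to 0.389 and GC content from 38.5% to 48.9%, with a Pearson correlation of 0.40 given as a description of segments that share a library. The lowest segment, chr17:37040001-43160000 at 0.067, had a GC content of 38.5%, and the Msh6 segment had 38.6%. The Alk segment had 41.6% and the Epas1 segment 44.4%, whereas the segment with the highest GC content, chr17:24200001-32440000 at 48.9%, was at 0.246. The segment with the highest level, chr17:15380001-16400000 at 0.389, had 42.0%, close to the Alk segment. The part of GC content in the step between Alk and Epas1 was not tested. Genome-wide, this tumour was called in 118 segments, against 55 to 91 in the other TI tumours, 117 in TIM replicate 9 and 123 in TIM replicate 12.

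TI replicates 4 and 5 had a flat rise of the whole chromosome that did not reach the threshold. Replicate 5 was at 0.256 from chr17:3040001 to chr17:95200000, which is the same span as the gain of replicate 7. Replicate 4 was at 0.136 from the same start to the end of the chromosome. Such levels correspond to 0.388 and 0.198 copies above 2. Replicate 6, an adrenal tumour, stood at 0.030, and replicates 2 and 8 at 0.0088 and 0.0147. The median level of Chr 17 was above 0.05 in 5 of 8 samples of TI, in 0 of 8 of TIM and in 0 of 5 of AGM. Chr 12 was above 0.05 in 8 of 8 samples of TI, in 0 of 8 of TIM and in 0 of 5 of AGM. At this limit every TI tumour with a raised Chr 17 thus had a raised Chr 12, as all TI tumours did. Chr 6 was above 0.05 in 4 of 8 samples of TI and 4 of 8 of TIM. With the fixed threshold, the gained length per TI tumour had a median of 0.13 Mb and a mean of 23.9 ± 42.0 Mb (SD, n = 8). The median falls between tumours at 0 Mb and the 0.26 Mb of replicate 8. It became 0 Mb for regions of at least 1 Mb and 0.02 Mb without the bins called in AGM. With other thresholds the median was 11.7 Mb at 0.2, 88.6 Mb at 0.1 and 0 Mb at 0.5. At the fixed threshold, at most 0.28 Mb was gained in a TIM tumour and 0.22 Mb in an AGM gland.

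**Figure D2:**
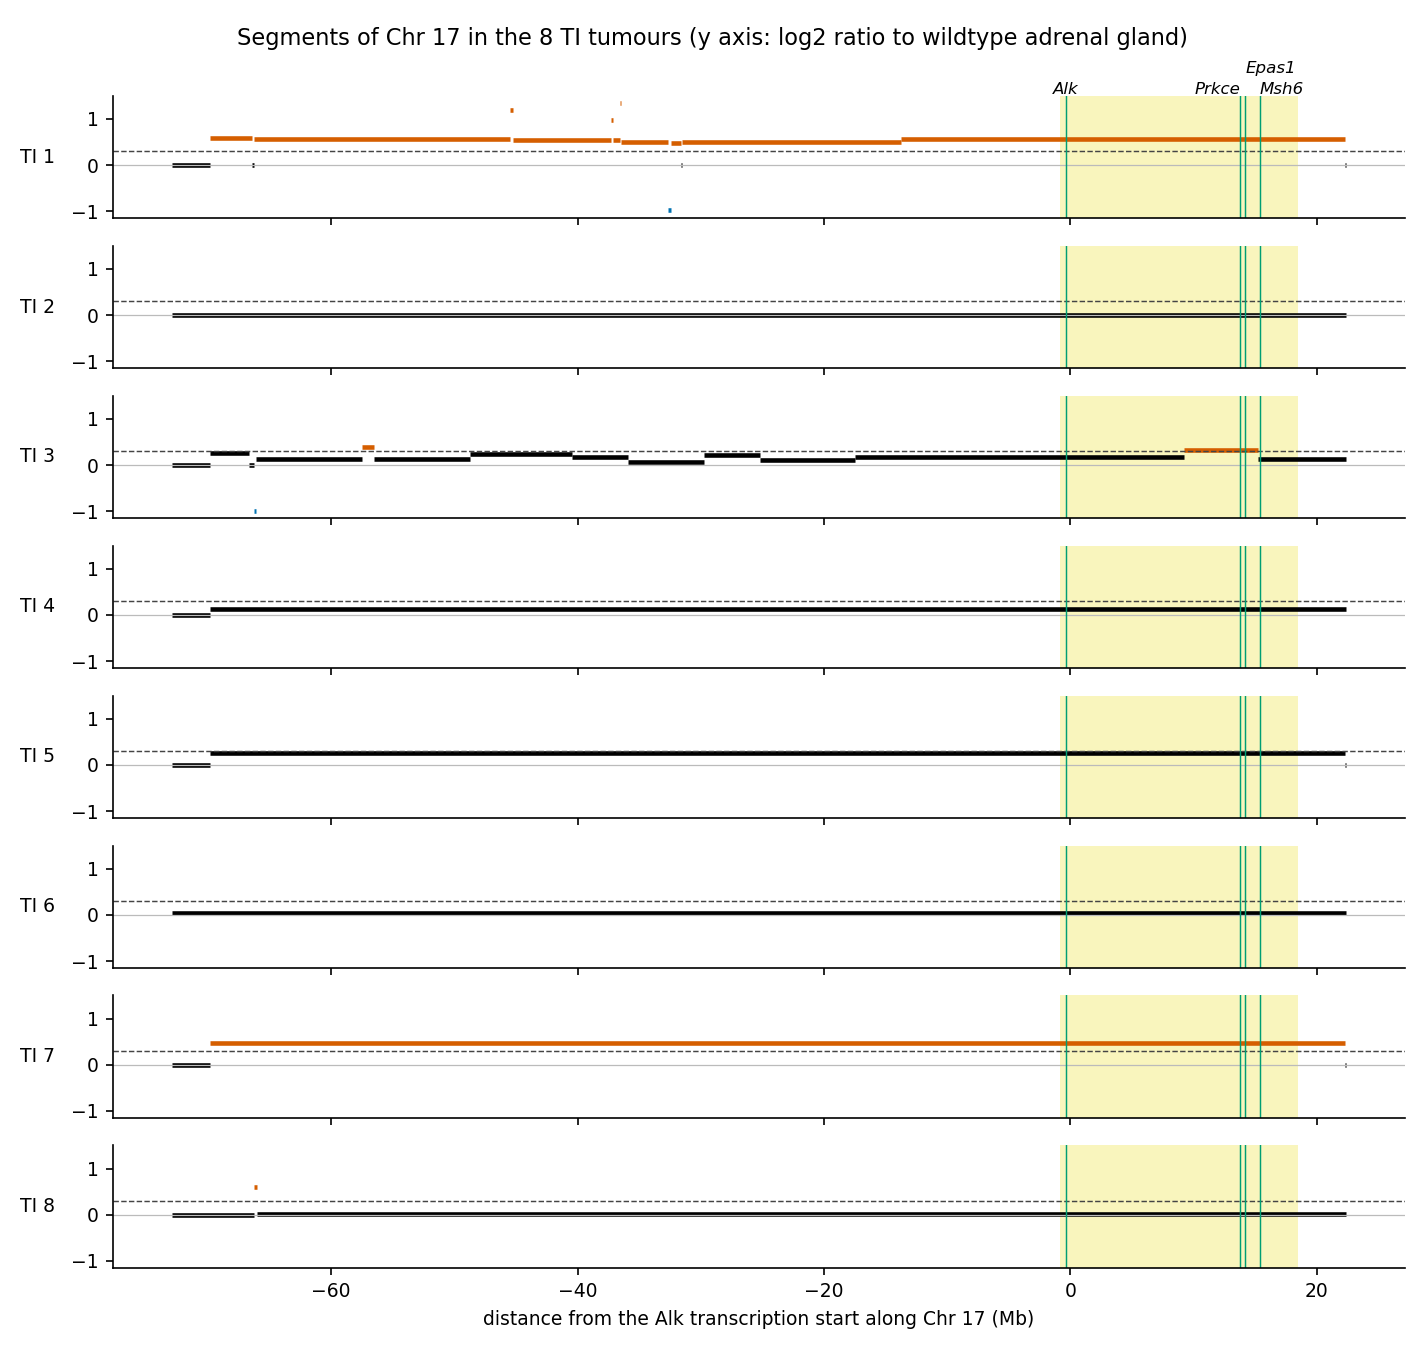
Segments of Chr 17 in the 8 TI tumours, with the log2 ratio to wildtype adrenal gland on the y axis and the distance from the Alk transcription start on the x axis (Mb, positive towards Msh6). Segments at or above 0.3 are orange, those at or below -0.4 blue, the yellow band is the 2p block and green lines mark the members. Gains span nearly the whole chromosome in TI replicates 1 and 7, and replicate 3 crosses the dashed 0.3 line at Prkce and Epas1.

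The short gains outside these tumours fell elsewhere on the chromosome. A segment over Dynlt1b and Ppp1r2-ps5, with starts from chr17:6620001 to chr17:6700001 and ends from chr17:6860000 to chr17:6900000, was called at 0.571 to 0.592 in 5 samples. These were 2 AGM glands, 1 TI tumour and 2 TIM tumours, so that it was found in adrenal glands as well as tumours. It accounts for all gained length of Chr 17 in the TIM and AGM samples and in TI replicate 8. TI replicate 3 was at -0.998 there. TIM replicate 11 additionally had a 140 kb loss at chr17:13180001-13320000 at -0.80, with Wtap, Sod2, Gpr31b, Tcp10b and Unc93a. No focal segment under 1 Mb, gained or lost, overlapped the 2p block in any sample.

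Because human 2p is split in the mouse, the gains of Chr 17 were set beside those of Chr 12. Mycn (ENSMUSG00000037169, chr12:12986076-12992915), the oncogene that is amplified in high-risk neuroblastoma, was gained in 5 of 8 TI tumours, namely replicates 2, 3, 5, 7 and 8. Alkal2 (ENSMUSG00000054204, chr12:30933504-30944914) was gained in the same 5 tumours. In each of them the gain took in 96.2% to 97.4% of Chr 12. The log2 ratio at Mycn was 0.140, 0.597, 0.576, 0.150, 0.638, 0.064, 0.603 and 0.504 in TI replicates 1 to 8. No TIM tumour or AGM gland was gained at either gene.

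Gains at Alk and at Mycn met in 1 TI tumour, replicate 7. Replicate 1 was gained at Alk without Mycn, replicates 2, 3, 5 and 8 at Mycn without Alk, and replicates 4 and 6 at neither. A two-sided Fisher's exact test over the 8 TI tumours gave p = 1 (adjusted p = 1 over 2 tests). With these margins the smallest p that could arise was 0.107, so that no arrangement of the gains could have passed 0.05. Over all 16 tumours, where 10 were gained at neither gene, the exact test also gave p = 1, with a smallest possible p of 0.0833. At the lower threshold of 0.1, where TI replicates 3, 4 and 5 also counted as gained at Alk, the exact test gave p = 0.00481 over all tumours and p = 0.375 within TI, which is the smallest p that those margins allow, so that neither value tests co-occurrence apart from genotype. All 5 tumours with both gains were then TI, and 8 of the 9 with neither were TIM. At 0.3, the margins left no room for either exact test to pass 0.05. No conclusion on joint occurrence or avoidance of the 2 gains is therefore drawn. Of the 3 TI tumours gained at Epas1, replicates 3 and 7 were gained at Mycn and replicate 1 was not, a description with no test.

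The levels showed more than the calls. Median copies above 2 were 0.969 for Chr 17 and 0.204 for Chr 12 in TI replicate 1, which was the single TI tumour with a clearly higher Chr 17. In replicate 7 both chromosomes were raised, by 0.782 and 1.04 copies. Replicate 5 had 0.388 copies of Chr 17 against 1.11 of Chr 12, and replicate 3 had 0.266 against 0.974. In replicates 2 and 8, Chr 12 was raised by 1.02 and 0.844 copies with Chr 17 at 0.012 and 0.020. Replicate 4 had nearly equal values of 0.198 and 0.219, and replicate 6 had 0.042 and 0.091.

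**Figure D3:**
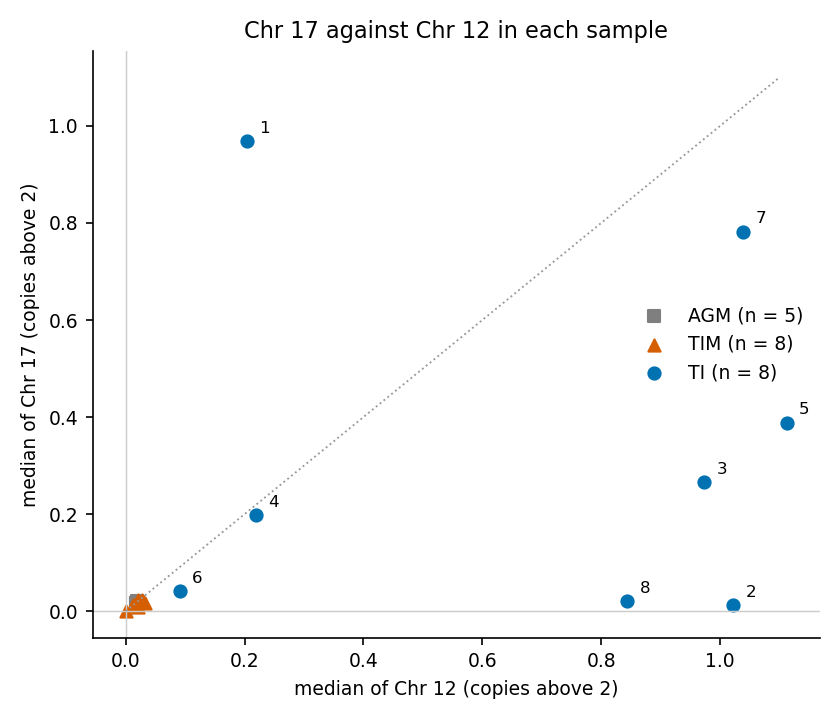
Median copies above 2 of Chr 12 (x axis) and Chr 17 (y axis) in each sample, as squares for AGM (n = 5), triangles for TIM (n = 8) and numbered circles for TI (n = 8); the dotted line marks equal values. TI replicate 7 is high on both axes, replicate 1 on the Chr 17 axis, replicates 2 and 8 on the Chr 12 axis, and the AGM and TIM samples crowd at the origin.

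Gains of at least 50% of an autosome were found in TI for Chr 12 in 5 tumours and for Chr 17, Chr 6 and Chr 11 in 2 each, and for no other autosome. In TI replicate 1, Chr 17 was the single autosome gained to this extent. In TI replicate 7, the gained autosomes were Chr 12 and Chr 17. TIM tumours had none on Chr 17 or Chr 12, 3 on Chr 6 and 1 on Chr 11.

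The other listed genes of the Chr 17 block followed the members. The list holds 86 genes, and the block as a whole has 97 protein-coding genes. Of the 86, all were gained in TI replicates 1 and 7 and 33 in replicate 3, which makes 205 of 688 pairs of a gene and a TI tumour (29.8%, against 9.19% over all genes), with a median log2 ratio of 0.136 against 0.00754 over all genes. Genes of 2p on other mouse chromosomes had their own patterns. Those on Chr 12 (26 genes) were gained in 130 of 208 pairs (62.5%), in TI replicates 2, 3, 5, 7 and 8. Those on Chr 6 (6 genes) were gained in TI replicates 3 and 4 and in TIM replicates 1, 11 and 12. Those on Chr 11 (9 genes) were gained in TIM replicate 9, and those on Chr 5 (11 genes) in no tumour. No tumour was gained in all 5 parts of 2p, and TI replicate 7 was the one gained throughout the 2 largest. Genes of a block share segments, so that these counts reflect a few events each.

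**Figure D4:**
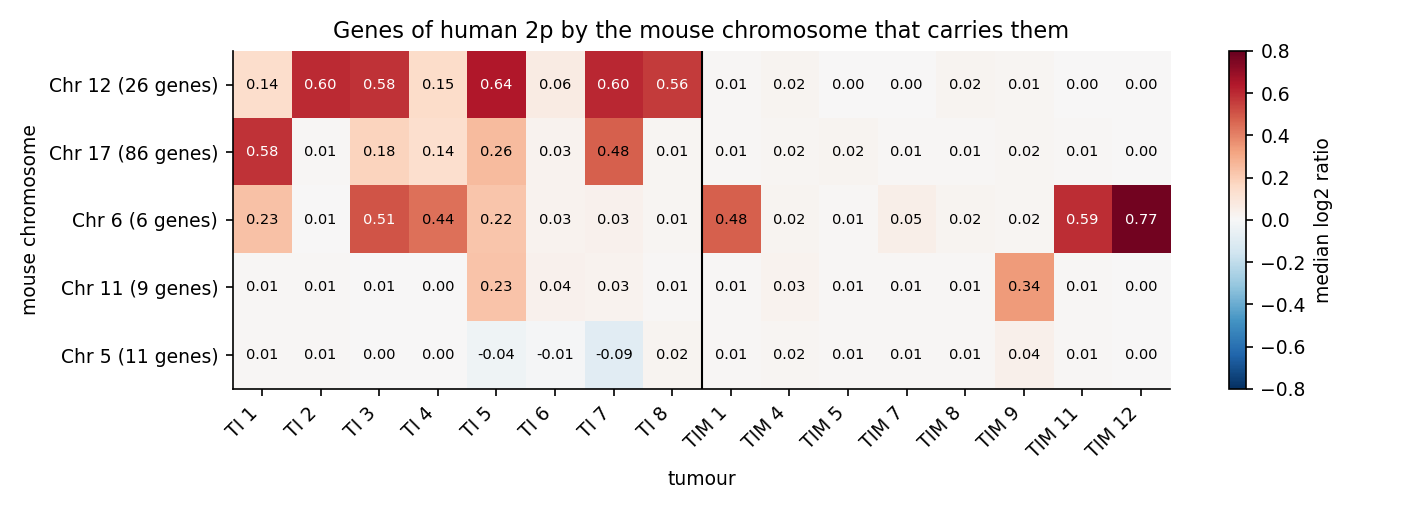
Median log2 ratio (colour and printed value) of the human 2p genes carried by each of 5 mouse chromosomes (rows, with gene numbers) in the 8 TI and 8 TIM tumours (columns). The Chr 17 row is near 0 in TI replicates 2, 6 and 8 and in all TIM tumours, the Chr 12 row is near 0 in all TIM tumours, whereas the Chr 6 row is raised in tumours of both genotypes.

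The pathways of the 4 genes were gained in part through other chromosomes. Of 7 genes for ALK, its relative LTK and their ligands or ligand-binding partners, 4 were gained in at least 2 TI tumours, in 12 of 56 pairs (21.4%). Besides Alk in replicates 1 and 7 and Alkal2 in the 5 tumours with Chr 12 gain, these were Ptn, the gene of the growth factor pleiotrophin, in replicates 3, 4 and 5, and Ptprz1, a receptor phosphatase that binds it, in replicates 3 and 4. Ptn and Ptprz1 were also gained in TIM replicates 1, 11 and 12, which made up the 6 gained pairs of 56 in TIM (10.7%, against 3.64% over all genes). Ltk, Alkal1 and Mdk were gained in no tumour. Receptor and ligand were thus both gained in TI replicate 7. The highest ratio at Alkal2 was 0.638, in replicate 5, and the lowest among the gained tumours was 0.329, in replicate 3, where a segment of 0.56 Mb at chr12:30500001-31060000 stood below the rest of the chromosome.

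Of 22 genes that carry the signal of ALK into the cell, 7 were gained in at least 2 TI tumours, with 28 of 176 pairs gained (15.9%). Sos1, an activator of RAS that lies in the Chr 17 block, was gained with Alk in replicates 1 and 7. Akt1 on Chr 12 was gained with Mycn in replicates 2, 3, 5, 7 and 8. Grb2 and Stat3 on Chr 11 were gained in 7 TI tumours, all but replicate 6.

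Of 11 genes of the oxygen-sensing pathway, 17 of 88 pairs were gained in TI (19.3%). Epas1 and its paralog Hif1a, which lies on Chr 12, were both gained in TI replicates 3 and 7. Hif1a was also gained in replicates 2, 5 and 8, together with Egln3, a prolyl hydroxylase that marks HIF proteins for degradation. Vegfa, a HIF target on Chr 17 outside the 2p block, was gained in replicates 1 and 7. Vhl, on Chr 6, was gained in 2 TI and 6 TIM tumours and supplied all 6 gained pairs of this list in TIM, with a highest log2 ratio of 3. The Rosa26 locus, where the transgenes were placed, lies on the same chromosome near Vhl, and its part in these values was not tested.

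Of 9 mismatch repair genes, 11 of 72 pairs were gained in TI (15.3%) and 0 in TIM. Msh6 was gained in TI replicates 1 and 7. Mlh3 on Chr 12 was gained in replicates 2, 3, 5, 7 and 8. Of 12 protein kinase C and D genes, 22 of 96 pairs were gained (22.9%) and 2 lost, both of Prkcz. Prkce was gained in replicates 1, 3 and 7, Prkd3, which also lies on Chr 17, in 1 and 7, Prkch and Prkd1 on Chr 12 in the 5 tumours with gain of that chromosome, and Prkca on Chr 11 in 7 tumours. In TIM, 1 of 96 pairs of this family was gained. These shares stand beside the 9.19% of all pairs in TI and the 3.64% in TIM.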

How the data were processed

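sWGS of murine tissue was analysed from segment values. The authors trimmed reads with cutadapt (2.8), aligned them with HISAT2 (2.1.0; mm39) and used SAMtools (1.10), per the labels' processing notes, and called copy number with cn.MOPS. For each segment of a sample, the deposited values are a median and a mean log2 ratio against wildtype adrenal glands (1485 segments, 73 on Chr 17). The deposited copy number text was not used; printed copies were computed as 2 times 2 to the power of the log2 ratio. Segments began on a 20 kb grid, and the shortest was 40 kb. Window and segmentation settings are not given in the sources used here. Neither reads nor window counts were used. The depth of each library and segment was therefore not analysed here beyond the low coverage that the study's methods give for all samples. The AGM spread was the single measure of precision at hand. It describes long segments in glands of the AGH name series, not shorter segments in TI tumours. At Alk, the AGM SD was 0.00122 by the median column and 0.00543 by the mean column. Counting intervals cover the number of tumours alone.

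Lengths of all 19 autosomes equalled GRCm39, and genes came from GENCODE M39. A gene's value was the mean of the median log2 column over overlapping segments, weighted by overlap. Gains were called at 0.3 and losses at -0.4, as in the study's methods. Named genes were the 4 members, Mycn and Alkal2, the ligands, partners or paralogs in the lists, and the genes beside level changes. The members and lists were chosen with earlier results of these data known. Co-occurrence was tested with Fisher's exact test (scipy 1.17.1), and the assignment of values to genes was tested on simulated data. Alternatives were other thresholds (0.1, 0.2, 0.5), the mean column, whole-number copies, library centring, other gene values, and subsets of tumours. Nothing states that samples came from separate litters. Library medians lay between -0.027 and 0.025. Some listed genes are not reported here.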

Additional observations from a re-analysis of the deposited data

Results flagged for a closer look

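In 18 sets of values, each over the samples of a group, the lowest or highest sample was compared with its nearest neighbour, and 2 stood apart by Dixon's criterion, where chance alone would give about 0.9 (1 in 20). The log2 ratio at Msh6 in TIM replicate 12 was 2.52e-05, with the nearest TIM tumour at 0.00915. The other members had the same value in this tumour, whose Chr 17 was a single segment, and it equalled the median of that library over the autosomes. The number of Chr 17 segments in TIM replicate 11 was 7, with the nearest TIM tumour at 3.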

How the results depend on the processing

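Of 141 alternative values for 11 results, 6 reversed a direction, 1 passed the threshold that the reported value did not, and 19 moved a count or level beyond the set limits. The choice of threshold moved the counts most. At 0.5, each member was gained in 1 TI tumour, and at 0.1 in 5. At 0.2, Alk and Msh6 were gained in 3 and Prkce and Epas1 in 4, and the median gained length of Chr 17 was 11.7 Mb. With whole-number copies, the call of TI replicate 3 (2.49 copies) was lost, so that Prkce and Epas1 were gained in 2 TI tumours, as Alk and Msh6 were. With the tumours labelled IGF2BP1 +/+ alone, Alk and Msh6 were gained in 1. Leaving out each TI replicate in turn (chosen after seeing the data) gave 1 to 2 tumours for Alk and Msh6, with 1 when replicate 1 or 7 was left out, and 2 to 3 for Prkce and Epas1. The median gained length of Chr 17 rose from 0.13 to 88.6 Mb at 0.1. The exact test of joint gain at Alk and Mycn in TI gave p from 0.375 to 1. In this exact test the direction turned from apart to together at 0.2 (p = 1), at 0.1 (p = 0.375) and without replicate 1 (p = 1), and leaving out single replicates gave p from 0.429 to 1. Over all tumours p ranged from 0.00481 to 1. It was 0.00481 at 0.1, where 5 tumours, all TI, were gained at both genes and 9 at neither, of which 8 were TIM, so that this value follows the split between genotypes. The direction of this exact test turned at 0.5 (p = 1), in the SH libraries alone (p = 1) and without TI replicate 7 (p = 1), and leaving out single replicates gave p from 0.333 to 1. The cause was not tested. The mean column put the AGM glands at 0.0307 in place of 0.0126 at every member. No paired analysis was possible because no test compares groups that share replicate numbers. Low coverage and a small number of tumours limit all counts.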
